A study of Mus musculus with 12 samples.

Results

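A set of 10 genes of neutrophils and of leukocyte adhesion were followed in the livers of mice given iron sulfate, dexamethasone or both. They were S100a8, S100a9, Cxcr2, Cd177, Fpr1, Csf3r and Il1r2, which are known from granulocytes, and Icam1, Vcam1 and Sele, which encode adhesion molecules of the vessel wall. They were taken from the 55414 genes of the deposited count table by matching its Ensembl identifiers to these symbols in the GENCODE mouse annotation. All 12 livers came from female C57Bl/6J mice of 8 to 12 weeks, with 3 mice in each of 4 groups. The first intraperitoneal injection was 0.9% NaCl or 300 mg/kg FeSO4, a dose that overloads the liver with iron, and the second, 6 h later, was PBS or 10 mg/kg dexamethasone (DEX, a synthetic glucocorticoid). Livers were taken 2 h after the second injection and 8 h after the first, which gave NaCl/PBS, NaCl/DEX, FeSO4/PBS and FeSO4/DEX mice. No group carried a genetic change, and whole liver RNA was read, so fewer cells of a type and less RNA per cell cannot be told apart in any value given here.

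Neutrophils leave the blood by slowing on selectins such as E-selectin (Sele), arresting on ICAM-1 (Icam1) and VCAM-1 (Vcam1) through integrins, and then crossing the vessel wall. In liver sinusoids, ICAM-1 is also present on resting endothelium and can be induced on hepatocytes and macrophages, and the endothelial genes are classic targets of tumor necrosis factor and interleukin-1 through NF-kappaB. Glucocorticoids are known to dampen NF-kappaB target genes, which is why the response of adhesion and chemokine genes to DEX is a standard readout of glucocorticoid action. Granulocyte genes in whole liver report on cells in the vessels and the tissue, and several of the genes followed here are also used by macrophages.

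The regions just before the start of transcription are shown for 2 sets of genes whose values are compared below, the S100a8 and S100a9 pair, which lie next to each other on chromosome 3, and the 3 adhesion genes. Each holds the 250 bases before the start of the canonical GENCODE transcript, read 5′ to 3′ on the strand of the gene from GRCm39, at chr3:90576035-90576284 (plus strand), chr3:90603072-90603321 (minus strand), chr9:20926422-20926671 (plus strand), chr3:115923348-115923597 (minus strand) and chr1:163875523-163875772 (plus strand). Capitals mark matches, on either strand, to an NF-kappaB motif (GGGNNNNNCC), a C/EBP motif (TTGCNNAA) or a TATA box (TATAAA).
S100a8: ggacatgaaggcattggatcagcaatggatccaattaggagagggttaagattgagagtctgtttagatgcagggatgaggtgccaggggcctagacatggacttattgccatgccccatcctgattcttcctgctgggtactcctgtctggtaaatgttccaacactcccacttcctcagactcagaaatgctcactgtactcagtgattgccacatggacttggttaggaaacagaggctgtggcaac
S100a9: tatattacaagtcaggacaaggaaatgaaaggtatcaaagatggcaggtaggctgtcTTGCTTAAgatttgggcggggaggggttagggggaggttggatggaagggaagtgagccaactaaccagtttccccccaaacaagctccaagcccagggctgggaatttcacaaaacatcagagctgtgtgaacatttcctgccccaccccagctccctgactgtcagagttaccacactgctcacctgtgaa
Icam1: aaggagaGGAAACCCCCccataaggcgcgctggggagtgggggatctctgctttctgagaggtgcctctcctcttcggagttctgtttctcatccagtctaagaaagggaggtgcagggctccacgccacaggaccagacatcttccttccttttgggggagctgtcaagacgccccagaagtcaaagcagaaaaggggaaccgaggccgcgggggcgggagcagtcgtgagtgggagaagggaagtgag
Vcam1: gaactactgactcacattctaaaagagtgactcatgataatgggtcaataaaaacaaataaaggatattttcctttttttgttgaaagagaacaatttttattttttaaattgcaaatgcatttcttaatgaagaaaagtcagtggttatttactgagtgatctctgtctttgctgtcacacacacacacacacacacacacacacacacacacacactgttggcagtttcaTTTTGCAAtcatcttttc
Sele: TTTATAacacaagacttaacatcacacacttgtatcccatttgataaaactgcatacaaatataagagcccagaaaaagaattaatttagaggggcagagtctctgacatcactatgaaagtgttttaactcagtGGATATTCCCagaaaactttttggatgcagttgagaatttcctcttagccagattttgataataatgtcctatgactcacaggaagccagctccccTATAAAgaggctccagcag
The NF-kappaB letters occurred once before Icam1 and once before Sele, and the C/EBP letters once before S100a9 and once before Vcam1. TATA box letters stood before Sele at both ends of the window. Over 13818 windows of the same length before tested genes, 53.5% held the NF-kappaB letters, 8.65% the C/EBP letters and 8.09% the TATA box letters. The palindromic glucocorticoid response element was found before none of the 10 genes and before 0.275% of the tested genes. These are matches of letters only, and the NF-kappaB letters are too common to mark a gene out.

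Between 16335651 and 23827340 reads per liver were counted on genes, and normalized counts given below are these reads scaled with edgeR's TMM factors to the mean effective library size. Of the 10 genes, 9 passed edgeR's filter on low counts, and Cd177 did not. Il1r2 and Sele reached the level of the filter in 0 of the 6 livers without FeSO4, and Cxcr2 in 2 of them, so that these 3 genes were kept through the FeSO4 livers and had to differ between the groups. A gene is called higher or lower where its edgeR FDR, the Benjamini-Hochberg adjusted p of the quasi-likelihood test over all 13857 tested genes, was 0.05 or less. LFC is the log2 fold change of the fitted model. One control liver stood apart. NaCl/PBS mouse 2 had 2446 normalized counts of Cxcl1, a neutrophil chemokine, against 260.4 and 109 in the other NaCl/PBS mice, and it was the highest of the 3 NaCl/PBS mice for all 10 genes, as it was for 35.9% of all tested genes. Results that turned on this mouse are therefore given with and without it.

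**Figure D1:**
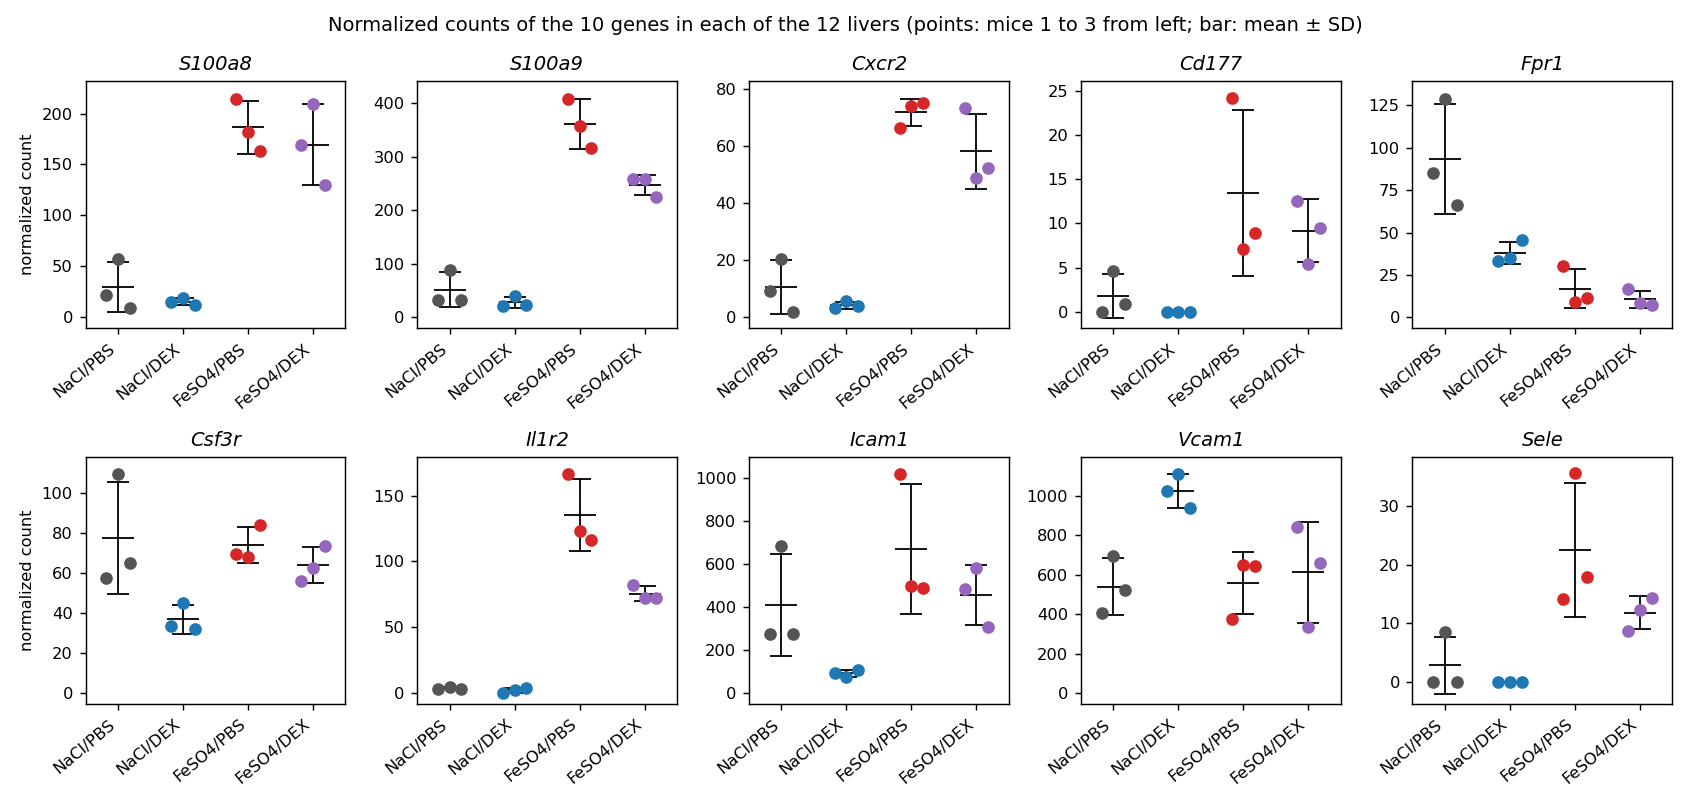
Normalized counts (y axes, linear) of the 10 genes in each liver, by group (x axes), with mice 1 to 3 from left to right in each group and the mean ± SD as a bar. S100a8, S100a9, Cxcr2 and Il1r2 were high in all 6 FeSO4 livers, Fpr1 was low there, Icam1 was lowest in the NaCl/DEX mice and Vcam1 highest in them.

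S100a8 and S100a9 encode the subunits of calprotectin, a calcium and metal binding protein that fills the cytoplasm of neutrophils and acts as an alarm signal when released. S100a8 (chromosome 3, 90567118 to 90578128, plus strand) stood at 22.3, 57.0 and 9.31 normalized counts in NaCl/PBS controls and at 215, 182 and 163 in FeSO4/PBS livers. S100a9 (chromosome 3, 90599931 to 90603071, minus strand) stood at 32.4, 88.8 and 32.2 in NaCl/PBS controls and at 408, 357 and 315 in FeSO4/PBS livers. For both genes every FeSO4/PBS mouse lay above every NaCl/PBS mouse, and NaCl/PBS mouse 2 was the highest of its group. The LFC was 2.68 ± 0.41 (SE) for S100a8 (edgeR FDR = 9.81e-05, n = 3 mice per group), which is 6.42-fold, and 2.84 ± 0.32 for S100a9 (edgeR FDR = 7.71e-06), which is 7.15-fold. Without NaCl/PBS mouse 2 the LFCs were 3.53 and 3.48. The reads behind these values numbered 11 to 61 per NaCl/PBS liver and 128 to 213 per FeSO4/PBS liver for S100a8, and 38 to 95 and 247 to 405 for S100a9.

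The other granulocyte receptors did not follow one course after FeSO4. Cxcr2 (chromosome 1, 74193150 to 74200405, plus strand), the neutrophil receptor for the chemokines Cxcl1 and Cxcl2, had 13, 22 and 2 reads in NaCl/PBS controls and 66, 73 and 59 in FeSO4/PBS livers. Its groups did not overlap, and the LFC was 2.79 ± 0.48 (SE, edgeR FDR = 2.41e-04), or 3.62 for Cxcr2 without NaCl/PBS mouse 2. Il1r2 (chromosome 1, 40113239 to 40164391, plus strand), the decoy receptor that binds interleukin-1 without signaling, had 4, 5 and 4 reads in NaCl/PBS controls and 165, 121 and 91 in FeSO4/PBS livers. This was the largest rise among the tested genes of the set, with an LFC of 5.19 ± 0.45 (SE, edgeR FDR = 1.63e-07), or 36.5-fold. Cd177 (chromosome 7, 24443408 to 24459747, minus strand), a surface protein of neutrophils, had 0, 5 and 1 reads in NaCl/PBS controls, none in the NaCl/DEX mice, 24, 7 and 7 in FeSO4/PBS livers and 13, 4 and 8 in the FeSO4/DEX mice. Every FeSO4/PBS mouse had more Cd177 reads than every NaCl/PBS mouse. On the log2(normalized count + 1) scale the difference between FeSO4 and NaCl livers, averaged over both second injections, was 2.91, with p = 0.005 in an exact two-sided permutation test within the second injection (n = 6 against 6), the smallest p that its 400 arrangements allow. That scale understates the change of a gene with so few reads.

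Fpr1 and Csf3r, also receptors of neutrophils and macrophages, went another way. Fpr1 (chromosome 17, 18096733 to 18104202, minus strand), the receptor for formyl peptides from bacteria and mitochondria, had 118, 138 and 78 reads in NaCl/PBS controls and 30, 9 and 9 in FeSO4/PBS livers, or 66.0 to 129 against 9.16 to 30.2 normalized counts. Every FeSO4/PBS mouse lay below every NaCl/PBS mouse, and Fpr1 fell by 2.43 ± 0.43 on the log2 scale (SE, edgeR FDR = 2.67e-04), which is 5.39-fold, and by 3.17 without FeSO4/PBS mouse 1. Csf3r (chromosome 4, 125918262 to 125938236, plus strand), the receptor for the granulocyte growth factor G-CSF, stood at 57.5, 109 and 65.2 normalized counts in NaCl/PBS controls and at 69.5, 68.2 and 84.2 in FeSO4/PBS livers. These groups overlapped, and the LFC of -0.06 ± 0.26 did not pass the test (edgeR FDR = 0.858). Its mean per kb of exon was 15.2 in NaCl/PBS controls and 14.5 in FeSO4/PBS livers, while the mean of S100a8 per kb went from 30.0 to 189.5 and that of Fpr1 from 70.5 to 12.8. Reads of Csf3r, Il1r2, Icam1, Vcam1 and Sele could be shared with annotated genes that overlap them, and those of Cxcr2 and Fpr1 with their close relatives.

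Among the adhesion genes, Sele rose after FeSO4 and Vcam1 did not pass the test, and the result for Icam1 depended on 1 mouse and on the filter. Sele (chromosome 1, 163867401 to 163886055, plus strand), which is made by activated endothelium, had 0, 9 and 0 reads in NaCl/PBS controls and 14, 35 and 14 in FeSO4/PBS livers. The groups did not overlap, and the LFC was 3.08 ± 0.98 (SE, edgeR FDR = 0.0123). With FeSO4/PBS mouse 2 left out the edgeR FDR of Sele was 0.0550, and without NaCl/PBS mouse 1 the LFC was 2.43. Without NaCl/PBS mouse 2, which held all 9 control reads, Sele was at least 9.59-fold higher against a floor of 3 reads per library (edgeR FDR = 4.70e-04). Icam1 (chromosome 9, 20926672 to 20940113, plus strand), the ligand of the beta-2 integrins of leukocytes, stood at 275, 683 and 273 normalized counts in NaCl/PBS controls and at 1016, 497 and 488 in FeSO4/PBS livers. The groups overlapped through NaCl/PBS mouse 2, and the LFC of 0.71 ± 0.36 did not pass the test (edgeR FDR = 0.111). Without that mouse the LFC was 1.29 and the edgeR FDR 0.00453. With all mice but no filter on low counts the edgeR FDR of Icam1 was 3.22e-05. The LFC of Icam1 without the filter was again 0.71, so that low FDR does not stand for a larger effect. Vcam1 (chromosome 3, 115903598 to 115923355, minus strand), the ligand of the integrin VLA-4, stood at 406, 694 and 522 normalized counts in NaCl/PBS controls and at 376, 650.0 and 647 in FeSO4/PBS livers. These groups overlapped, and its LFC was 0.05 ± 0.28 (edgeR FDR = 0.907).

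Over the set, 5 of the 9 tested genes were higher with FeSO4/PBS relative to NaCl/PBS (S100a8, S100a9, Cxcr2, Il1r2 and Sele) and 1 was lower (Fpr1), with Csf3r, Icam1 and Vcam1 not called. Of all tested genes, 27.2% were called higher and 27.3% lower in this comparison, with a median LFC of -0.02. Groups did not overlap in 29.0% of all tested genes with the FeSO4 livers higher and in 31.0% with them lower. Because Cxcr2, Il1r2 and Sele were kept through the FeSO4 livers, the count describes the set and supports nothing further.

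In mice without iron, DEX lowered Icam1 within 2 h. Icam1 stood at 92.3, 74.3 and 107 normalized counts in the NaCl/DEX mice, below all 3 NaCl/PBS mice, and fell by 2.17 ± 0.39 on the log2 scale (SE, edgeR FDR = 0.00229), which is 4.49-fold. Without NaCl/PBS mouse 2 it fell by 1.58 (edgeR FDR = 0.00654), and it was called without each of the other mice too. Vcam1 went the other way. It stood at 1027, 1109 and 939 in the NaCl/DEX mice, above all 3 NaCl/PBS mice, with an LFC of 0.93 ± 0.28 (edgeR FDR = 0.0438). That call was close to the threshold, was lost without any single one of 5 of the 6 mice (edgeR FDR up to 0.170) and was kept without NaCl/PBS mouse 2 (edgeR FDR = 0.0309). Sele had no read in any NaCl/DEX mouse and 0, 9 and 0 reads in NaCl/PBS controls, so that neither group gave a fold change.

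The granulocyte genes had lower means in the NaCl/DEX than in NaCl/PBS controls, and 2 of them were called. Csf3r stood at 33.3, 45.1 and 32.2 normalized counts in the NaCl/DEX mice, below every NaCl/PBS mouse, and fell by 1.06 ± 0.27 on the log2 scale (SE, edgeR FDR = 0.0182). Fpr1 stood at 33.3, 34.8 and 45.3, also below every NaCl/PBS mouse, and fell by 1.30 ± 0.38 (edgeR FDR = 0.0376). Neither call was firm. That of Fpr1 was lost without any single one of 5 of the 6 mice (edgeR FDR up to 0.167, without NaCl/PBS mouse 2), and that of Csf3r without NaCl/DEX mouse 1 (0.0689), NaCl/DEX mouse 3 (0.0766) or NaCl/PBS mouse 2 (0.0973). S100a8 at 15.0, 18.8 and 12.1 and S100a9 at 20.4, 40.4 and 22.2 overlapped with the NaCl/PBS mice and did not pass the test (LFCs of -0.91 and -0.85, edgeR FDRs of 0.267 and 0.165). With NaCl/PBS mouse 2 left out these LFCs were -0.06 and -0.20. Cxcr2 had 3, 6 and 4 reads and Il1r2 0, 2 and 4 reads in the NaCl/DEX mice, and neither passed the test (edgeR FDRs of 0.242 and 0.476). In this comparison, which shares the NaCl/PBS mice with the one above, 1 of 9 tested genes was called higher and 3 lower, against 6.5% and 7.15% of all tested genes. Groups without overlap made up 17.6% (higher after DEX) and 20.3% (lower) of them.

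**Figure D2:**
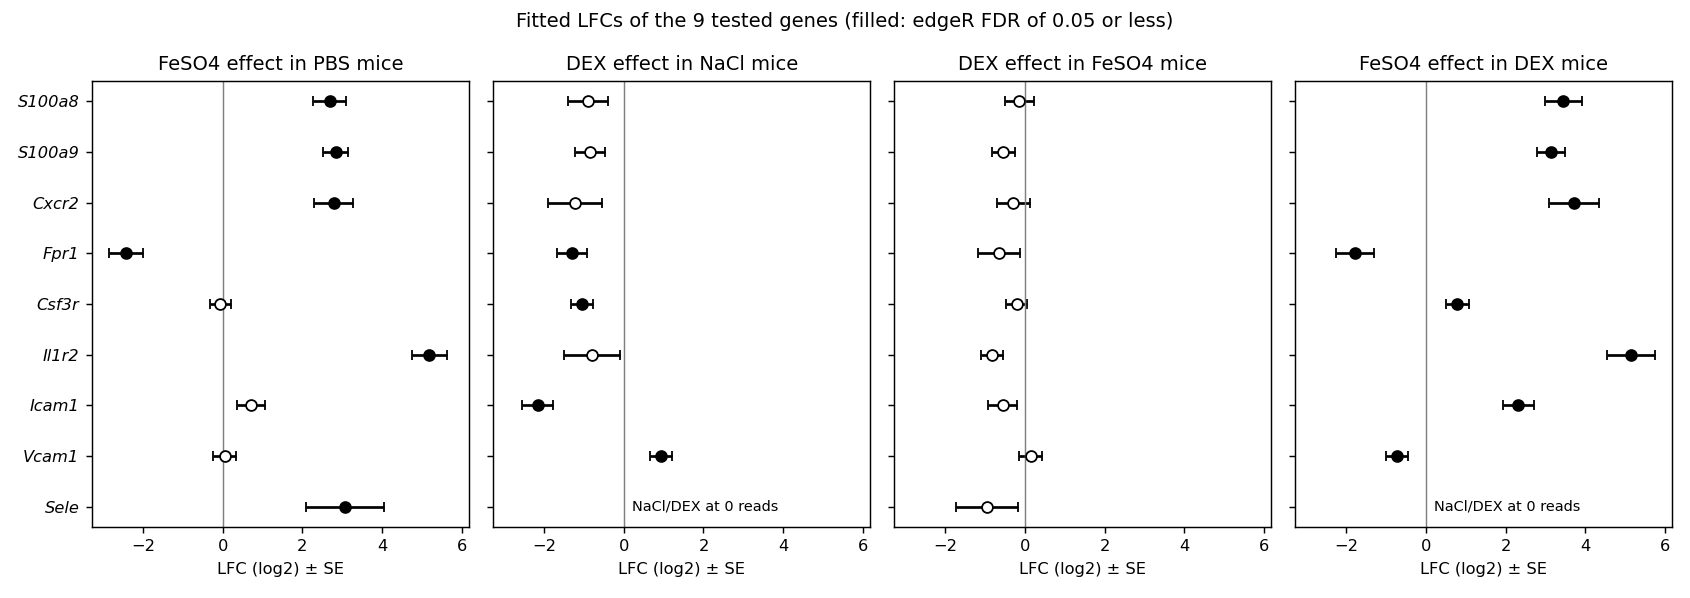
Fitted LFC ± SE (x axes, log2) of the 9 tested genes (y axis) in the 4 comparisons, filled where the edgeR FDR was 0.05 or less. Sele has no point where the NaCl/DEX mice, all at 0 reads, enter. The panel of the DEX effect in FeSO4 mice holds no filled point.

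In mice that had received FeSO4, none of the genes passed the test for DEX. Icam1 stood at 481, 579 and 304 normalized counts in the FeSO4/DEX mice against 1016, 497 and 488 in FeSO4/PBS livers, which overlapped, with an LFC of -0.56 ± 0.36 (SE, edgeR FDR = 0.810). Vcam1 stood at 842, 337 and 662 in the FeSO4/DEX mice, the widest spread of any group for this gene, with an LFC of 0.15 ± 0.29 (edgeR FDR = 0.945). Csf3r at 56.1, 62.5 and 73.7, S100a8 at 169, 209 and 129.6 and Cxcr2 at 73.5, 48.9 and 52.3 overlapped with the FeSO4/PBS mice too. For 2 genes the groups did not overlap. Il1r2 stood at 82.2, 72.0 and 72.5 against 166, 123 and 116, an LFC of -0.84 ± 0.28 (unadjusted p = 0.00947, edgeR FDR = 0.709), and S100a9 at 258, 258 and 225 against 408, 357 and 315, an LFC of -0.54 ± 0.29 (edgeR FDR = 0.774). Groups without overlap occurred in 4.85% of all tested genes with DEX lower and in 4.45% with DEX higher. Sele had 9, 9 and 12 reads after DEX against 14, 35 and 14, and Fpr1 17, 6 and 6 against 30, 9 and 9, and both overlapped on the normalized scale. By edgeR's test, 0.0% of all 13857 genes were called here, while 900 genes (6.49%) had an unadjusted p under 0.05 and DESeq2 called 5 genes higher and 4 lower. With no filter on low counts edgeR called 99 higher and 71 lower, Icam1 among the latter (edgeR FDR = 0.0456). The LFC of Icam1 in that fit was again -0.56.

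Whether the DEX effect differed between FeSO4 and NaCl mice was tested with the interaction of both injections, for which 0 of the 9 genes and 6.18% of all tested genes were called. The smallest unadjusted p was that of Icam1, whose DEX effect was higher by 1.61 ± 0.53 on the log2 scale in FeSO4 mice (SE, unadjusted p = 0.00952, edgeR FDR = 0.0976). DESeq2 gave this difference an FDR of 0.0340 and edgeR one of 5.32e-10 when no filter on low counts was set. The LFC without the filter was 1.59, so that low FDR does not stand for a larger effect. That fit called 683 genes higher and 776 lower for the interaction, against 414 and 443 with the filter. The difference of Icam1 also depended on single mice, with an edgeR FDR of 0.0259 without FeSO4/PBS mouse 1 and of 0.212 without NaCl/PBS mouse 2. For Csf3r the difference was 0.85 ± 0.38 (edgeR FDR = 0.224) and for Vcam1 -0.78 ± 0.40 (edgeR FDR = 0.295), and for Il1r2 -0.04 ± 0.75 (edgeR FDR = 1.00).

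Among mice that had all received DEX, no gene of the set overlapped between FeSO4/DEX and NaCl/DEX mice. All 9 tested genes were called, 7 higher and 2 lower, against 22.4% and 20.9% of all tested genes (28.8% and 27.1% for groups without overlap), with the reservation on Cxcr2, Il1r2 and Sele given above. S100a8 rose by 3.45 ± 0.47 on the log2 scale (SE, edgeR FDR = 4.05e-05), S100a9 by 3.14 ± 0.36 (edgeR FDR = 9.90e-06), Cxcr2 by 3.72 ± 0.62 and Il1r2 by 5.15 ± 0.60 (6.07 without NaCl/DEX mouse 3). Icam1 rose by 2.32 ± 0.40 (edgeR FDR = 3.85e-04), which is 4.99-fold, and here every FeSO4/DEX mouse (304 to 579) lay above every NaCl/DEX mouse (74.3 to 107). Sele, with 9 to 12 reads per FeSO4/DEX mouse and none in the NaCl/DEX mice, was at least 3.88-fold higher against a floor of 3 reads per library, and Cd177 at least 3.04-fold. Fpr1 fell by 1.78 ± 0.49 (edgeR FDR = 0.00727). The calls of Csf3r (LFC of 0.79, edgeR FDR = 0.0333) and Vcam1 (LFC of -0.73, edgeR FDR = 0.0498) were lost without any single one of 4 and of 5 of the 6 mice.

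Averaged over both second injections, the FeSO4 effect was called higher for 6 of the 9 genes and lower for 1, where 30.8% of all tested genes were called higher and 31.0% lower. The 6 include Cxcr2, Il1r2 and Sele, which had to differ, so this count too supports nothing further. Icam1 was also called higher, with an LFC of 1.51 ± 0.27 (SE, edgeR FDR = 2.29e-04). Fpr1 was the gene called lower, having fallen by 2.11 ± 0.32 on the log2 scale (edgeR FDR = 5.01e-05). Csf3r (edgeR FDR = 0.110) and Vcam1 (edgeR FDR = 0.151) were not called with all mice. Without NaCl/PBS mouse 2, Csf3r was called higher (LFC of 0.52, edgeR FDR = 0.0187). Without FeSO4/DEX mouse 1, Vcam1 was called lower (LFC of -0.49, edgeR FDR = 0.0447).

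Ordered by group means, Icam1 ran from 667 ± 302 normalized counts (SD, n = 3) in FeSO4/PBS livers over 455 ± 139 in the FeSO4/DEX and 410.0 ± 236 in NaCl/PBS controls to 91.1 ± 16.3 in the NaCl/DEX mice. Only the last step separated mice without overlap. Vcam1 ran from 1025 ± 85.1 in the NaCl/DEX mice over 614 ± 256 in the FeSO4/DEX and 558 ± 157 in FeSO4/PBS livers to 541 ± 145 in NaCl/PBS controls, and only its first step was without overlap. S100a9 ran from 360.1 ± 46.7 in the FeSO4/PBS over 247 ± 19.3 in the FeSO4/DEX to 51.1 ± 32.7 in the NaCl/PBS and 27.7 ± 11.1 in the NaCl/DEX mice, with an overlap at the last step alone. Per kb of exon, Icam1 had the highest mean of the 10 genes in NaCl/PBS controls (82.5), Vcam1 in the NaCl/DEX mice (114) and S100a9 in the FeSO4/PBS (282) and FeSO4/DEX mice (194). Sele and Cd177 were the lowest in every group, at no more than 5.87 per kb.

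The chemokines and cytokines that act on neutrophils and endothelium were read next. Of 10 listed genes 9 could be tested, with 5 called higher and 0 lower in FeSO4/PBS livers relative to NaCl/PBS controls and a median LFC of 1.53. All tested genes had 27.2% called higher and 27.3% lower. Of the 5 genes called higher, 4 (Cxcl2, Cxcl3, Csf3 and Ppbp) passed the filter through the FeSO4 livers alone and had to differ, so this count supports nothing. Cxcl2, a ligand of Cxcr2, stood at 0.719, 26.2 and 0.846 normalized counts in NaCl/PBS controls and at 106, 192 and 143 in FeSO4/PBS livers (LFC of 4.08, edgeR FDR = 5.58e-04, and 3.47 without NaCl/PBS mouse 1). Nearly all control reads of Cxcl2 came from NaCl/PBS mouse 2. Without that mouse the LFC of Cxcl2 was 7.35, which rests on 1 read in each other control. Cxcl3, another such ligand, went from 0, 0 and 0.846 to 10.1, 26.4 and 12.8, and Csf3, which encodes G-CSF, from 0, 1.87 and 0 to 17.1, 19.3 and 10.2. All 3 were separated without overlap, as were 29.0% of all tested genes with the FeSO4 livers higher. The control reads of Cxcl3 (1 in all) and Csf3 (2 in all) are too few for a fold change. Cxcl1 stood at 4316, 2301 and 1502 in FeSO4/PBS livers and overlapped with NaCl/PBS mouse 2 (LFC of 1.53, edgeR FDR = 0.114), and without that mouse its LFC was 3.87 (edgeR FDR = 7.62e-05). Without it, 7 of the 9 genes were called higher. These 9 still hold the 4 genes kept through the FeSO4 livers, so this count supports nothing either.

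After DEX in NaCl mice, 2 genes of this list were lower and 1 was higher (7.15% and 6.5% of all tested genes). Cxcl1 fell to 23.6, 5.64 and 38.3 normalized counts (LFC of -5.39, edgeR FDR = 0.00363) and Il1b, which encodes interleukin-1 beta, from 36.0, 212 and 29.6 to 2.15, 2.82 and 0 (LFC of -5.67, edgeR FDR = 0.00110). Both were separated without overlap, as were 20.3% of all tested genes with DEX lower. Cxcl1 and Il1b were also called without NaCl/PBS mouse 2, with LFCs of -3.05 and -4.19. The LFC of Cxcl1 was -6.03 without NaCl/DEX mouse 3 and that of Il1b -6.29 without NaCl/DEX mouse 2. Il1rn, the interleukin-1 receptor antagonist, rose from 145, 235 and 131 to 435, 299 and 487 (LFC of 1.26, edgeR FDR = 0.0179), a call that was lost without any single one of 4 of the 6 mice (edgeR FDR up to 0.0827). For Il1b and Il1rn the DEX effect differed between FeSO4 and NaCl mice, by 4.70 (edgeR FDR = 0.0339) and by -2.23 (edgeR FDR = 0.0108). The interaction was called for 6.18% of all tested genes. Without NaCl/PBS mouse 2 the difference of Il1b was 3.21 (edgeR FDR = 0.0157) and that of Il1rn -2.54 (edgeR FDR = 0.00590). The value of Il1b rests on 2, 3 and 0 reads in the NaCl/DEX mice. The difference of Il1b was not called without any single one of 6 of the 12 mice (edgeR FDR up to 0.0986). The median LFC of the list was -0.47 when genes without a read in the NaCl/DEX mice were set at the floor of 3 reads.

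**Figure D3:**
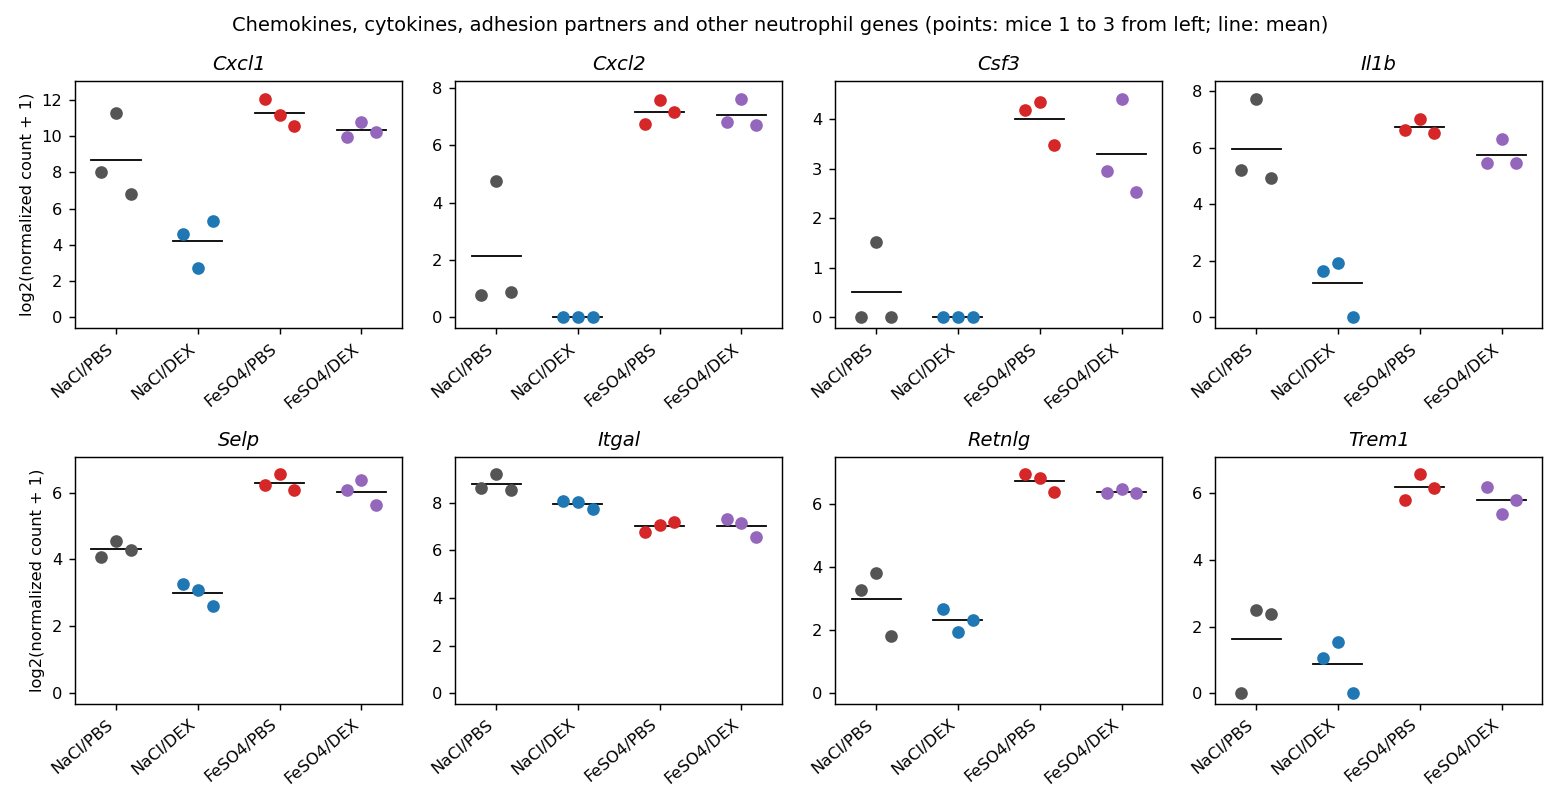
Levels of 8 partner genes in each liver as log2(normalized count + 1) (y axes), by group (x axes), with mice 1 to 3 from left to right and the mean as a line. NaCl/PBS mouse 2 was the highest of its group for Cxcl1, Cxcl2, Csf3 and Il1b, the NaCl/DEX mice were the lowest group for these 4 genes, and both FeSO4 groups lay above it. Il1b was lower in all FeSO4/DEX than in all FeSO4/PBS livers, as were 4.85% of all tested genes, and was not called in that comparison.

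Genes of tumor necrosis factor and interleukin-1 signaling, of NF-kappaB itself and of its feedback inhibitors were mostly called higher after FeSO4. Of the 11 tested genes of that list, 9 were called higher and 0 lower, with a median LFC of 1.41, against 27.2% and 27.3% of all tested genes and a median of -0.02. All 11 passed the filter in both FeSO4 and NaCl livers. The largest rises were those of Il1r1, the signaling receptor for interleukin-1 (LFC of 2.18, edgeR FDR = 2.39e-05), Tnfrsf1a, the main receptor for tumor necrosis factor (LFC of 1.70), and Nfkbia, the NF-kappaB inhibitor (LFC of 1.67). After DEX in NaCl mice, 3 were higher and 3 lower, where 6.5% and 7.15% of all tested genes were. Il1r1, Nfkbia and Tnfrsf1b rose (LFCs of 1.35, 1.11 and 0.68), and Relb, an NF-kappaB subunit, Tnfrsf1a and Nfkb1 fell (LFCs of -1.96, -0.71 and -0.48). The call of Nfkb1 was lost without NaCl/DEX mouse 3 and without each NaCl/PBS mouse (edgeR FDR up to 0.105). Tnf itself, named after its values were seen, was under the filter, and its highest level, 22.4 normalized counts, was again in NaCl/PBS mouse 2.

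The other endothelial adhesion genes that were called after FeSO4 were all higher. Of 12 listed genes 10 could be tested, with 4 called higher and 0 called lower after FeSO4 (27.2% and 27.3% of all tested genes) and a median LFC of 0.27. P-selectin (Selp), the other endothelial selectin and also a platelet protein, stood at 15.8, 22.4 and 18.6 normalized counts in the NaCl/PBS, 8.59, 7.52 and 5.03 in the NaCl/DEX, 74.6, 92.6 and 66.3 in the FeSO4/PBS and 66.7, 81.6 and 48.8 in the FeSO4/DEX mice. It rose after FeSO4 (LFC of 2.04, edgeR FDR = 4.00e-05) and fell after DEX in NaCl mice (LFC of -1.41, edgeR FDR = 0.0169), a call that was lost without NaCl/PBS mouse 2 (edgeR FDR = 0.0580) and without NaCl/DEX mouse 3 (up to 0.0772). Esam, an endothelial junction protein, and Vwf, the von Willebrand factor, had LFCs of 1.24 and 0.94 after FeSO4, and Vwf was not called without NaCl/PBS mouse 2 or FeSO4/PBS mouse 2. Selp was the only gene of the 10 tested that was called after DEX in NaCl mice (6.5% of all tested genes higher and 7.15% lower). Madcam1 and Glycam1, ligands of mucosal and lymph node vessels, had no read in any liver.

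The leukocyte counter-receptors of these molecules and the receptors of calprotectin held no gene called higher after FeSO4. All 13 were tested, with 0 called higher, 4 called lower (27.2% and 27.3% of all tested genes) and a median LFC of -0.19. Itgal, the alpha chain of LFA-1 that binds ICAM-1, fell from 401, 591 and 371 normalized counts to 109.9, 135 and 145 (LFC of -1.80, edgeR FDR = 1.25e-05). Cd44, a hyaluronan receptor and selectin ligand, and Tlr4, a receptor for calprotectin, fell as well (LFCs of -1.10 and -1.05). After DEX in NaCl mice, 0 of the 13 were called higher and 2 lower (6.5% and 7.15% of all tested genes). These 2 were Cd44 and Itgal (LFCs of -1.32 and -0.86). Itgal was not called without NaCl/PBS mouse 2 (edgeR FDR = 0.0736) or NaCl/DEX mouse 3.

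**Figure D4:**
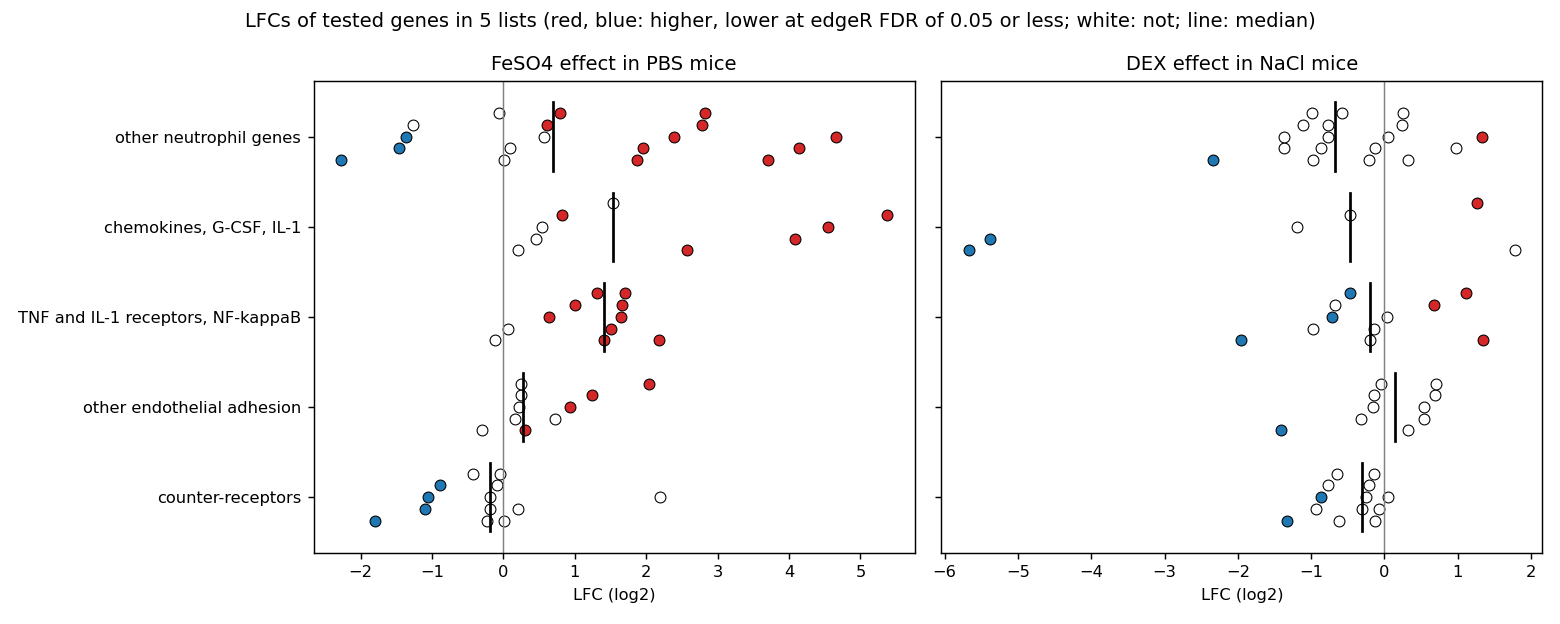
LFC (x axes, log2) of the tested genes in 5 lists (y axis), for FeSO4/PBS against NaCl/PBS mice and NaCl/DEX against NaCl/PBS mice, with the median as a line. Red and blue points are genes called higher and lower. Genes without a read in the NaCl/DEX mice are left out of the right panel and enter its median at the floor. Chemokine and NF-kappaB genes lie mostly to the right after FeSO4, counter-receptors do not. Among the chemokine genes, Cxcl2, Cxcl3, Csf3 and Ppbp were kept through the FeSO4 livers alone and had to lie there.

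Of 22 further genes known from neutrophils, 18 were tested, with 10 called higher and 3 lower after FeSO4 (27.2% and 27.3% of all tested genes) and a median LFC of 0.70. Of the 10, 5 (Retnlg, Trem1, Clec4d, Clec4e and Pglyrp1) passed the filter through the FeSO4 livers alone and had to differ, so the count supports nothing. Trem1, a receptor that amplifies inflammatory signals, went from 0, 4.68 and 4.23 to 55.4, 94.6 and 70.1 normalized counts (LFC of 4.66, edgeR FDR = 1.54e-05), Clec4d from 0, 4.68 and 5.08 to 31.9 to 76.6 (LFC of 4.14) and Retnlg, a secreted resistin family protein, from 8.63, 13.1 and 2.54 to 122, 112 and 82.9 (LFC of 3.70). None of these 3 overlapped between the groups, and 29.0% of all tested genes had FeSO4 livers higher without overlap. Without NaCl/PBS mouse 1 the LFCs of Trem1 and Clec4d were 4.01 and 3.50. Ncf1 and Ncf4, subunits of the phagocyte NADPH oxidase, and G0s2, a lipase inhibitor that hepatocytes also make, fell (LFCs of -2.28, -1.46 and -1.36), and G0s2 was not called without NaCl/PBS mouse 2. After DEX in NaCl mice, 1 of the 18 was called higher and 1 lower, near the 6.5% and 7.15% of all tested genes. These were Hdc (LFC of 1.33) and G0s2 (LFC of -2.33). Ly6g, the defining surface marker of mouse neutrophils, had at most 3 reads in any liver, and Cxcr1 at most 1. Of 10 granule and precursor genes, Ctsg, Ms4a3 and Fcnb had no read at all, Mpo had at most 2 and Elane at most 13. The 2 that were tested, each kept by the filter through the group where it was high, went opposite ways after FeSO4, with Ngp rising from 0.719, 0 and 3.39 to 32.3, 22.4 and 35.7 normalized counts and Prtn3, a serine protease, falling from 70.5, 132 and 102 to 6.05, 0 and 1.28.

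Markers of other cells moved in the same livers, and their part in the values above was not tested. The counts after FeSO4 stand beside 27.2% of all tested genes called higher and 27.3% lower. The summed level of 11 Kupffer cell and macrophage markers lay between 10866 and 12278 normalized counts in NaCl/PBS controls and between 6422 and 7379 in FeSO4/PBS livers, with 9 of 11 called lower after FeSO4. That fall goes in the direction of Fpr1, Itgal and Ncf1. The sum of 5 red blood cell genes lay between 1567 and 3727 in NaCl/PBS controls, between 2886 and 5559 in FeSO4/PBS livers and between 3978 and 8906 in the FeSO4/DEX mice, with 3 of 5 called higher in FeSO4/PBS mice and 0 without NaCl/PBS mouse 2. The sum of 5 platelet genes lay between 48.2 and 51.4 in the NaCl/PBS and between 121 and 149 in FeSO4/PBS livers. Only 2 of these 5 could be tested, with 1 called higher, and 1 of the 5 had no read in any liver. Of 12 sinusoidal endothelial markers 2 were higher and 7 lower after FeSO4, and their sum lay between 9642 and 10991 in NaCl/PBS controls and between 7574 and 9505 in FeSO4/PBS livers. Of the remaining lists, monocyte markers had 1 of 5 tested genes higher and 1 lower, lymphocyte markers 2 of 7 lower, stellate cell markers 2 of 8 higher and 2 lower, mesothelial markers 1 of 3 lower and hepatocyte markers 4 of 7 higher. The lymphocyte and stellate counts lie near the shares of all tested genes. The mesothelial gene and 1 of the 2 lymphocyte genes called lower passed the filter through the NaCl livers alone and had to differ. After DEX in NaCl mice the Kupffer sum was 9913 to 11327 with 0 of 11 genes called (6.5% of all tested genes higher and 7.15% lower). The sum of the red blood cell genes was 2799 to 3667. In FeSO4 mice, DEX gave 0 called genes in every one of these lists, and 0.0% of all tested genes were called.

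The genes whose log2 levels ran most like those of the set over the 12 livers were sought among 10211 tested genes with a mean of at least 50 normalized counts. For Icam1 these were Cxcl1 (Pearson's r = 0.965), Cdr2l (0.964) and Rxrg (0.949), and for Csf3r Il1b (0.925), Csf1 (0.894) and Tead3 (0.885). S100a8 ran most like Il13ra1 (0.983), Retnlg (0.981) and Litaf (0.980). S100a9 ran most like Litaf (0.988) and Il4ra (0.986), and Il1r2 like Tubb6 (0.990), Plin2 (0.989) and Slc30a10 (0.989). For Vcam1 they were Hk2 (0.935), Tmem41b (0.913) and Galnt1 (0.912). Within the set, S100a8 and S100a9 had an r of 0.980, Icam1 and Csf3r of 0.804 and Icam1 and Vcam1 of -0.696. All of these r share the same livers and the same 4 group means, so they describe the pattern over groups and carry no test.

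**Figure D5:**
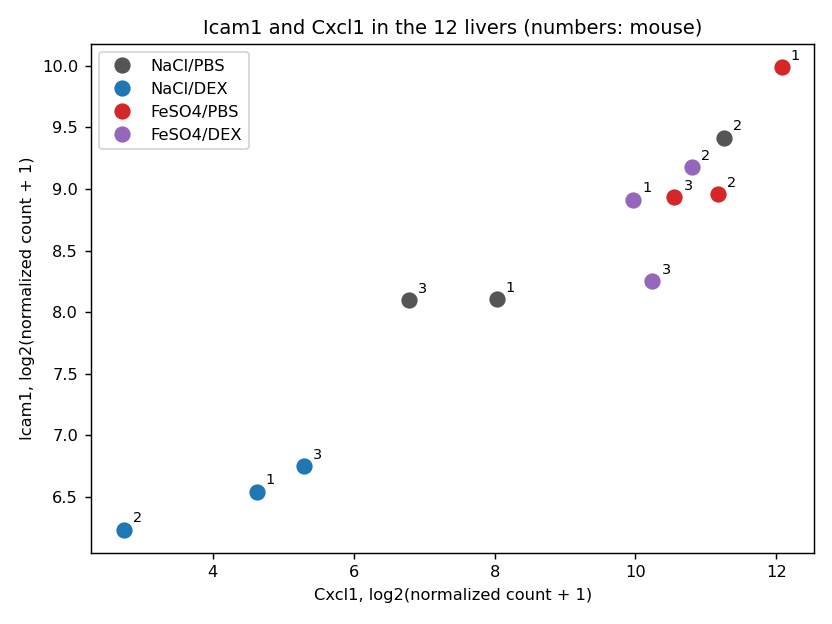
Icam1 (y axis) against Cxcl1 (x axis) in the 12 livers, both as log2(normalized count + 1), colored by group and numbered by mouse. NaCl/PBS mouse 2 lies with the FeSO4 livers and apart from NaCl/PBS mice 1 and 3, and the 3 NaCl/DEX mice lie lowest for both genes.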

How the data were processed

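Liver RNA of 12 mice was sequenced by the authors as stranded mRNA libraries with single-end reads, aligned to mm39 with STAR 2.7.10b and counted per gene. The deposited values are raw counts. Which strand column was taken is not given in the sources used here, and 54749 of 55414 identifiers had a GENCODE symbol. Groups came from the sample labels. Counts were scaled with TMM factors (0.871 to 1.16), filtered with filterByExpr and tested in edgeR 4.0.16 (R 4.3.3) by quasi-likelihood on all 12 libraries in 1 model of 4 groups, with Benjamini-Hochberg adjustment over all tested genes. Cd177, under the filter, was tested by exact permutation. The fit was tested on simulated data. Named genes were all 10 of the set, up to 3 called genes with the largest rise and fall in each partner list, and the 3 most similar genes, of which 1 is not reported here. Members and lists were chosen with earlier results of these data known. Alternatives were DESeq2 1.42.0, other scalings and filters, a fold minimum, separate fits, a replicate block and leaving out each library. Total counts of 16335651 to 23827340 per library limit genes with few reads. P-values measure the spread between mice.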

Additional observations from a re-analysis of the deposited data

How the results depend on the processing

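With 3 mice per group, single livers decided several calls, and genes with under 10 reads in the NaCl livers carry wide counting error. Of the values for single genes, 688 kept direction and side of the threshold under the alternatives, 29 lost their call, 15 gained one and 15 changed sign, and of the counts 314 stayed within 1.5 times and 64 did not. The cause was not tested. Scaling by library size alone moved the median LFC of all genes by -0.32 (FeSO4 in PBS mice), -0.15 (DEX in NaCl mice), -0.20 (FeSO4 in DEX mice), 0.12 (interaction) and -0.26 (FeSO4 over both second injections), and the share of higher calls in the first 4 from 49.9% to 28.2%, 47.6% to 25.8%, 51.7% to 34.2% and 48.3% to 63.7%. It gave 2285 higher and 5829 lower genes for FeSO4 in PBS mice, 1776 lower and 0 of the set higher for DEX in NaCl mice, and 2738 higher and 2 of the set lower for FeSO4 over both second injections (30.5% higher against 49.9%). The LFC of Vcam1 for FeSO4 in PBS mice became -0.27 and the interaction of Il1r2 0.092.

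With an LFC beyond 1 the calls were 1730 higher and 2040 lower (FeSO4 in PBS mice), 411 and 473 with 0 of the set higher (DEX in NaCl mice), 1474 and 1362 with 1 of the set lower (FeSO4 in DEX mice), 277 lower (interaction), and 1611 and 1736 (FeSO4 over both). With at least 10 counts in every library, the set had 2 higher and 0 lower for FeSO4 in PBS mice, 4 and 0 for FeSO4 in DEX mice and 3 and 0 over both. With no filter, 6 of the set were lower for DEX in NaCl mice, 99 genes were higher and 71 lower with 1 of the set lower for DEX in FeSO4 mice, 683 and 776 genes with 1 of the set each way were called for the interaction, and 2 of the set were lower over both. DESeq2 called 5 higher and 4 lower for DEX in FeSO4 mice, and 735 lower with 1 of the set higher for the interaction. Same-numbered livers had correlated deviations of -0.0919 to 0.129 and others of -0.151 to 0.111, so the numbers were not taken to pair mice. Between NaCl/DEX and NaCl/PBS mice, however, same-numbered livers had 0.129, 0.109 and 0.0520, and others -0.151 to 0.0302. Whether those livers were paired is not given in the labels. With the replicate block, 0 of the set were higher for DEX in NaCl mice, where Fpr1 lost its call (edgeR FDR = 0.0539), and 1 was lower for FeSO4 in DEX mice.

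Leaving out each liver gave 578 to 722 lower genes for DEX in NaCl mice against 991, with 0 to 1 of the set higher and 1 to 4 lower, 0 to 1 higher genes for DEX in FeSO4 mice, 1 to 2 of the set lower for FeSO4 in DEX mice and over both, and 229 to 408 higher genes for the interaction against 414, with 0 to 1 of the set higher. LFCs that changed sign ranged from -0.13 to 0.27 (Vcam1) and -0.24 to 0.27 (Csf3r) for FeSO4 in PBS mice, and from -0.33 to 0.0021 (S100a8), -0.15 to 0.42 (Vcam1) and -1.16 to 0.076 (Fpr1) for DEX in FeSO4 mice. For the interaction they ranged from -0.56 to 0.88 (Il1r2), -0.094 to 1.17 (S100a8) and -0.35 to 0.69 (S100a9). Sele, with no read in the NaCl/DEX mice, has no interaction value.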
